A study of Mus musculus with 9 samples.

Results

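Synaptonemal complex genes were followed in mouse embryonic stem cells (ESCs) after knockdown of Dppa2 or Dppa4, a pair of small DNA-binding proteins of the early embryo and germ line. The 9 genes were taken by symbol (Sycp1, Syce1, Syce2, Syce3, Tex12, Sycp2, Sycp3, Hormad1, and Hormad2), and all 9 were found once among the 25965 genes of the deposited table. The cells were E14 ESCs of 129/Ola background, grown without feeders in serum and LIF in all groups. The authors report the knockdowns in ESCs that carried the fluorescent reporters MERVL::tdTomato and Zscan4c::eGFP. The siRNA was the only difference between the groups (Control siRNA, Dppa2 siRNA, and Dppa4 siRNA), and it was given at 0 h and again at 48 h, with collection at 96 h (4 d). Each group had 3 polyadenylated RNA libraries, called A, B, and C, and 9 libraries were compared in all. The model is 1 cell line with a transient knockdown, and fewer cells of a type and less RNA per cell cannot be told apart in such bulk RNA. The authors describe the siRNA data as 3 biological replicates. Within a group, the library titles share the same replicate number and differ by letter. Nothing in the labels says whether the libraries of a group came from separate cultures, so p-values measure the spread between these libraries, which may be technical.

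The synaptonemal complex is the protein zipper that joins homologous chromosomes in the first meiotic prophase. Each chromosome first forms an axis, which carries the lateral element proteins SYCP2 and SYCP3 and the HORMA domain proteins HORMAD1 and HORMAD2. SYCP1 dimers, the transverse filaments, then bridge the axes, and a central element that includes SYCE1, SYCE2, SYCE3, and TEX12 locks them together. ESCs do not enter meiosis, and many germ line genes are held down in them by promoter DNA methylation and by a Polycomb complex that contains E2F6, MGA, and MAX, which recognize E2F and E-box motifs.

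Expression is given as the deposited log2 values, after the authors had matched the distributions of the libraries. A value of about -4.49 is the lowest in the table and stands for no reads. Read numbers were read off the rank of each distinct value in its library, which gave estimated totals of 20.7 to 39.7 Mreads per Control siRNA library, 16.8 to 26.7 per Dppa2 siRNA library, and 21.2 to 30.4 per Dppa4 siRNA library. Intervals on reads pool the libraries of a group, so they take in counting error alone and not the spread between libraries. The libraries carried no molecular identifiers. The targeted genes fell in their own knockdowns. Dppa2 was at 6.94 to 7.26 in Control siRNA libraries and at 3.36 to 3.86 with Dppa2 siRNA, and Dppa4 was at 7.02 to 7.11 in Control siRNA libraries and at 6.09 to 6.16 with Dppa4 siRNA. In RNA, Dppa2 was at 7.01 to 7.17 with Dppa4 siRNA, and Dppa4 at 7.07 to 7.17 with Dppa2 siRNA. By Western blot, the authors report that Dppa4 siRNA also removed most of the Dppa2 protein. They report a smaller loss of Dppa4 protein with Dppa2 siRNA. The knockdowns were therefore not separate single depletions at the protein level.

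The promoters of the genes that passed a test, and of 2 axis genes for contrast, are shown as the 150 bases upstream of the RefSeq start in GRCm38.p6, read 5′ to 3′ on the strand of the gene. Capitals mark motifs. The E2F motif is TCCCGC. On the other strand it reads GCGGGA. The E-box is CACGTG, which is the same on both strands.
Syce1 (chr7:140787855-140788004, minus strand): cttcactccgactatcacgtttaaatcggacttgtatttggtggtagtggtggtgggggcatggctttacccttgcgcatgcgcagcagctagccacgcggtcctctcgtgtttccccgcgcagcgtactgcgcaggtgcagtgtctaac
Sycp1 (chr3:102936101-102936250, minus strand): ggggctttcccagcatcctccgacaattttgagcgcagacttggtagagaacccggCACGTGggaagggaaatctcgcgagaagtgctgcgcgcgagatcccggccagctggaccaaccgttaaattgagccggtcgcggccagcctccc
Hormad2 (chr11:4441083-4441232, minus strand): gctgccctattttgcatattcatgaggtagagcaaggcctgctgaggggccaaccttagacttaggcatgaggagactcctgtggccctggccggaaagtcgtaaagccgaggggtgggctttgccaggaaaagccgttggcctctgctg
Hormad1 (chr3:95559527-95559676, plus strand): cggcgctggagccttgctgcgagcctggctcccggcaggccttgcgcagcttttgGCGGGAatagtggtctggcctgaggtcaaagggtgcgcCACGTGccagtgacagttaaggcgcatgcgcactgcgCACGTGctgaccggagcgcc
Sycp3 (chr10:88459437-88459586, plus strand): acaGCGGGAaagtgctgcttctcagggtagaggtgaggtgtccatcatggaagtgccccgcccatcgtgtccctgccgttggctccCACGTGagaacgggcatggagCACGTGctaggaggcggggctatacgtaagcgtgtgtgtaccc
Both motifs were searched on both strands, from 250 bases before to 50 bases after the start, and could overlap by at most 1 base. All 9 genes had an entry in the RefSeq promoter table. Both motifs stood in 1 promoter of 5 of them (Sycp1, Sycp3, Hormad1, Tex12, and Syce2), and 4 had neither (Syce1, Syce3, Sycp2, and Hormad2). Of 32841 mouse promoters of the same length, 19.98% held the E2F motif, 7.15% the E-box, and 1.99% both. Hormad1 carried E-boxes at -57 and -20 and the E2F motif at -95, counted from the start. Sycp1 carried an E-box at -94, and its E2F motif lay past the start, at position 3 of the transcript. Genes with and without the motifs are found among those that fell, as described next, and the letters alone do not show whether a factor was bound.

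Control siRNA ESCs gave reads of all 9 genes, at very different levels. Per length, as inferred reads per Mreads and per kilobase of merged exons, Syce2 was highest at 33.6 ± 8.18 (SD, n = 3), followed by Syce1 at 16.3 ± 4.57 and Sycp3 at 7.93 ± 0.587. Hormad1 (4.84 ± 1.495) and Syce3 (3.23 ± 1.55) came next, and the ranges of these neighbours overlapped. Hormad2 (0.922 ± 0.207), Sycp1 (0.504 ± 0.146), Sycp2 (0.201 ± 0.0512), and Tex12 (0.121 ± 0.0218) were lowest. The ranges of every other pair of neighbours in this order did not overlap. So the central element genes Syce1 and Syce2 were the most abundant, whereas the transverse filament gene Sycp1 and the lateral element gene Sycp2 were each at 19 to 59 reads per library.

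**Figure D1:**
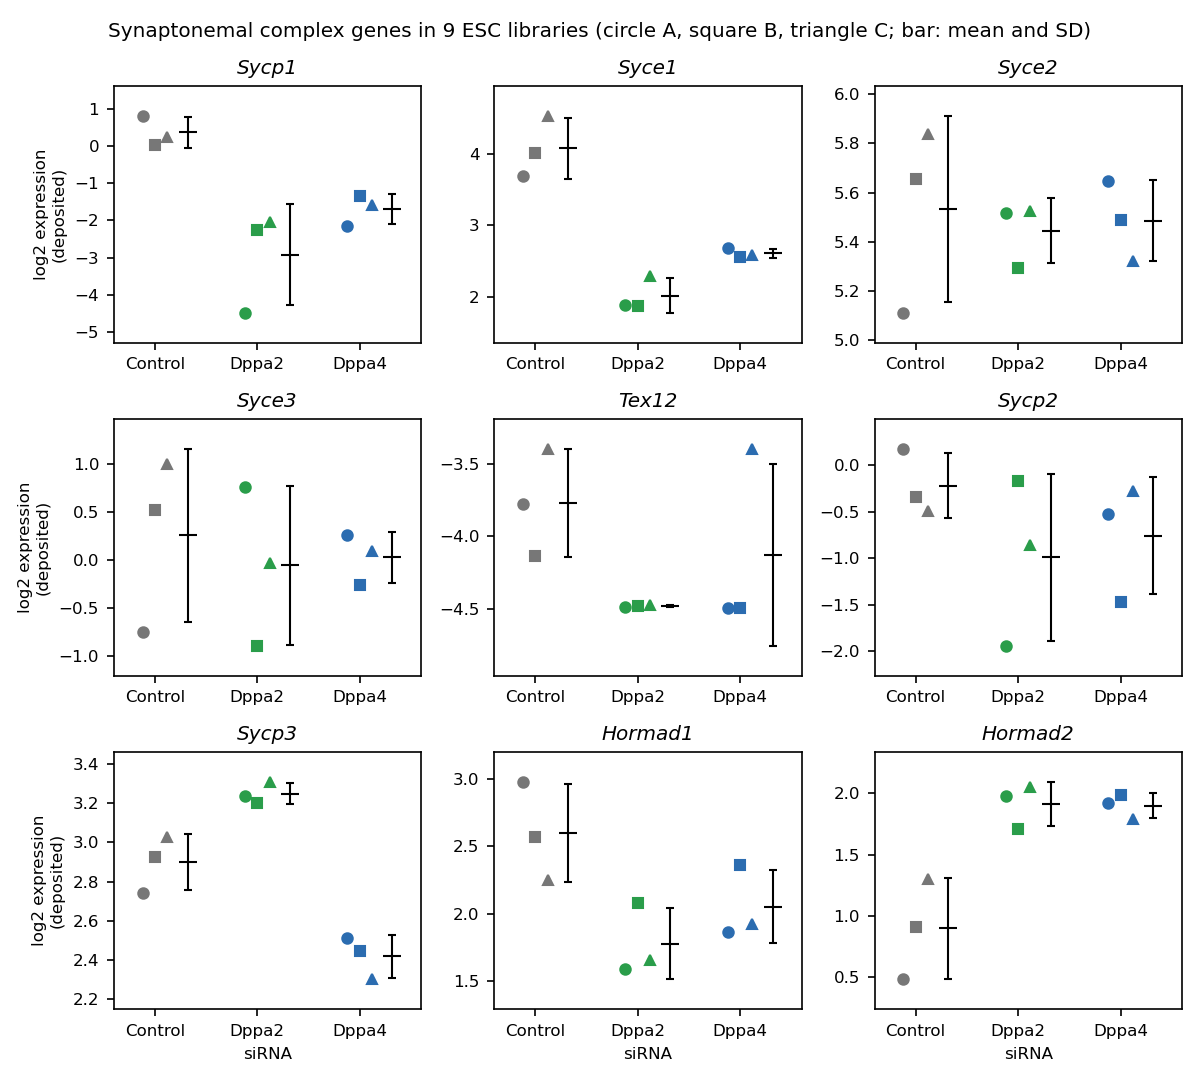
Deposited log2 expression (y axis, own scale in each panel) of the 9 genes in the 3 libraries of each siRNA group (x axis). Circles, squares, and triangles are libraries A, B, and C, and the bar is the mean with its SD. Syce1 and Sycp1 lie lower in all 6 knockdown libraries than in any Control siRNA library, Hormad2 lies higher, and Sycp3 lies above the control range with Dppa2 siRNA and below it with Dppa4 siRNA.

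Differences between groups were fitted with limma to the 14601 genes that exceeded a log2 value of -2 in 3 or more libraries, and p-values were adjusted over all of them (Benjamini-Hochberg). A gene was called high-confidence when its adjusted p was below 0.05 and its mean difference also stood out at p below 0.05 from genes of like expression (the intensity difference filter). Of the 9 genes, 8 were tested, and Tex12 was too low. With Dppa2 siRNA, 2 of the 8 were called lower (Syce1 and Sycp1) and 0 higher, against 1.51% and 0.356% of all tested genes. With Dppa4 siRNA, 1 was called lower (Syce1) and 1 higher (Hormad2), against 1.62% and 0.363% of all tested genes. The 2 comparisons share the Control siRNA libraries. By limma alone, the counts were 2 lower and 1 higher with Dppa2 siRNA (2.27% and 1.16% of all genes) and 1 lower and 1 higher with Dppa4 siRNA (2.34% and 1.1% of all genes). An unadjusted limma p below 0.05 was reached by 5 of the 8 with Dppa2 siRNA (3 lower and 2 higher), against 15.7% of all tested genes in either direction, and by 5 with Dppa4 siRNA (4 lower and 1 higher), against 18%. The 8 genes had a median log2 change of -0.54 in the Dppa2 knockdown and -0.51 in the Dppa4 knockdown, where all tested genes had 0.02 and 0.03.

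Syce1 codes for a central element protein, and it fell in both knockdowns. The authors already name Syce1 among the genes lowered in these knockdowns, so its call here is not independent of their result. They also report enrichment of Dppa2 and Dppa4 at Syce1 in published chromatin binding data. Whether such binding has a part in the fall was not tested. The log2 values of Syce1 were 3.68, 4.01, and 4.54 in Control siRNA libraries A, B, and C. They were 1.88, 1.86, and 2.29 with Dppa2 siRNA and 2.68, 2.55, and 2.58 with Dppa4 siRNA. None of the knockdown values reached the lowest control value, and each rested on 91 or more reads. The log2 change was -2.06 with Dppa2 siRNA (SE 0.21, limma adjusted p = 0.000937) and -1.47 with Dppa4 siRNA (SE 0.21, limma adjusted p = 0.00692). Pooled over the libraries of a group and scaled by their totals, 21.3% of the control reads remained with Dppa2 siRNA (exact 95% interval 18.8% to 24.0%) and 32.4% with Dppa4 siRNA (29.5% to 35.5%). The difference between the knockdowns, 0.59 higher with Dppa4 siRNA (95% interval 0.11 to 1.07), did not pass the adjusted test (limma adjusted p = 0.678). The gene lies at chr7:140777229-140787854 on the minus strand (ENSMUSG00000025480), and none of its sampled 50-base stretches occurs in another annotated gene.

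Sycp1, the transverse filament gene, was called lower with Dppa2 siRNA only, though the 2 knockdowns did not pass a test of their difference. The log2 values were 0.82, 0.04, and 0.23 in Control siRNA libraries A, B, and C, which stands for 58, 59, and 31 reads. Dppa2 siRNA libraries held 0, 4, and 4 reads (log2 values of -4.49, -2.25, and -2.04), and Dppa4 siRNA libraries held 7, 12, and 7 reads (-2.15, -1.35, and -1.59). Every knockdown library was below every control library. The change was -3.29 with Dppa2 siRNA (SE 0.61, limma adjusted p = 0.0228) and -2.06 with Dppa4 siRNA (SE 0.61, limma adjusted p = 0.116). As a share of the control reads, 7.23% remained with Dppa2 siRNA (exact 95% interval 3.07% to 14.6%) and 18.5% with Dppa4 siRNA (11.7% to 28.1%). The knockdowns differed by 1.23 on the log2 scale, with a 95% interval of -0.16 to 2.62 (limma adjusted p = 0.795). The call depended on single libraries. It was lost for Dppa2 siRNA without Control siRNA library A (limma adjusted p = 0.0752) or B (0.0675), and Sycp1 was called lower with Dppa4 siRNA when Dppa2 siRNA library A, the one with no reads, was left out of the fit (0.0178). The gene lies at chr3:102818499-102936100 on the minus strand (ENSMUSG00000027855), and 3.54% of its stretches also occur in the pseudogene Sycp1-ps1.

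**Figure D2:**
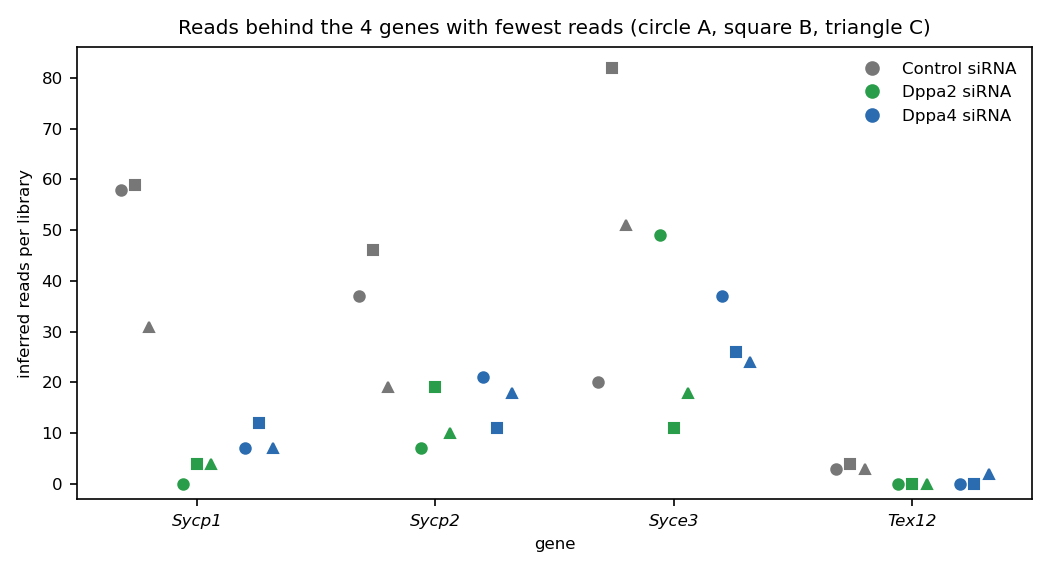
Inferred reads per library (y axis) for the 4 genes with the fewest reads (x axis), with siRNA groups in colour and libraries A, B, and C as circles, squares, and triangles. Sycp1 drops from 31 to 59 reads in Control siRNA libraries to at most 12 in a knockdown library, whereas the groups overlap for Sycp2 and Syce3, and Tex12 has at most 4 reads anywhere.

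The other central element genes did not pass the test. Syce2, whose product forms fibres with TEX12, had log2 values of 5.11, 5.66, and 5.84 in Control siRNA libraries, 5.52, 5.29, and 5.53 with Dppa2 siRNA, and 5.65, 5.49, and 5.32 with Dppa4 siRNA. All of the knockdown values lay within the control range. Its log2 difference was -0.09 with Dppa2 siRNA (95% interval -0.50 to 0.32) and -0.05 with Dppa4 siRNA (-0.46 to 0.37), so a decrease of the size seen for Syce1 lies outside both intervals. Syce3, whose product is needed early in central element assembly, was spread widely within groups, at -0.75, 0.52, and 1.001 in Control siRNA libraries, 0.76, -0.90, and -0.03 with Dppa2 siRNA, and 0.26, -0.26, and 0.09 with Dppa4 siRNA. The intervals of its difference were correspondingly wide, -1.46 to 0.84 for Dppa2 siRNA and -1.38 to 0.92 for Dppa4 siRNA. In pooled reads, 68.2% of the control level remained with Dppa2 siRNA (exact 95% interval 51.2% to 90.2%). With Dppa4 siRNA it was 59.8% (45.4% to 78.3%). These intervals leave out the wide spread between libraries. Tex12 was at the limit of detection, with 3, 4, and 3 reads in Control siRNA libraries A, B, and C, no reads in the Dppa2 siRNA libraries, and 0, 0, and 2 reads with Dppa4 siRNA. The absence of reads with Dppa2 siRNA allows up to 59.7% of the control level (exact 95% interval), and with Dppa4 siRNA 21.0% of the control reads remained (2.24% to 98.6%). Tex12 was not tested.

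Hormad2 rose by limma in both knockdowns. HORMAD2 marks unsynapsed axes and takes part in the surveillance of synapsis. The log2 values were 0.48, 0.91, and 1.30 in Control siRNA libraries, 1.98, 1.71, and 2.05 with Dppa2 siRNA, and 1.92, 1.99, and 1.79 with Dppa4 siRNA. All 6 knockdown libraries were above the highest control library, on 46 to 106 reads per Control siRNA library and 81 to 142 reads per knockdown library. The log2 change was 1.01 with Dppa2 siRNA (SE 0.21, limma adjusted p = 0.0367) and 1.002 with Dppa4 siRNA (SE 0.21, limma adjusted p = 0.0373). Only the change with Dppa4 siRNA passed the intensity difference filter and was called, although the changes were nearly equal and the knockdowns differed by -0.01 (95% interval -0.49 to 0.47). In reads, the level was 184% of control with Dppa2 siRNA (exact 95% interval 154% to 221%) and 177% with Dppa4 siRNA (149% to 210%). The call with Dppa4 siRNA was near its thresholds. It was lost when Control siRNA library A (limma adjusted p = 0.0766) or B (0.0934), Dppa2 siRNA library A (0.0676) or C (0.0691), or Dppa4 siRNA library A (0.142), B (0.165), or C (0.0931) was left out. Without Control siRNA library C, Hormad2 was called higher with both siRNAs (0.0125 and 0.0135). The gene lies at chr11:4345814-4441105 on the minus strand (ENSMUSG00000020419).

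Its paralog Hormad1, which is needed for axis and synaptonemal complex formation, had lower means in both knockdowns and did not pass the adjusted test. It was at 2.97, 2.56, and 2.25 in Control siRNA libraries, 1.59, 2.08, and 1.66 with Dppa2 siRNA, and 1.87, 2.36, and 1.92 with Dppa4 siRNA. All Dppa2 siRNA values were below the control values, and Dppa4 siRNA library B lay within the control range. The log2 difference was -0.82 with Dppa2 siRNA (SE 0.23, limma adjusted p = 0.1001) and -0.55 with Dppa4 siRNA (SE 0.23, limma adjusted p = 0.245). Of the 50-base stretches of Hormad1, 27.3% also occur in other annotated genes (Gm15529 and Gm7167), so its reads may be shared with them and its level is less certain.

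The lateral element genes gave no call. Sycp3 codes for the protein that coats and compacts the meiotic axis. It was at 2.74, 2.92, and 3.03 in Control siRNA libraries, 3.24, 3.20, and 3.31 with Dppa2 siRNA, and 2.51, 2.44, and 2.30 with Dppa4 siRNA. The 3 groups did not overlap, with Dppa2 siRNA above and Dppa4 siRNA below the controls. The log2 difference from Control siRNA was 0.35 with Dppa2 siRNA (SE 0.12, limma adjusted p = 0.183) and -0.48 with Dppa4 siRNA (SE 0.12, limma adjusted p = 0.0703). Directly compared, Dppa4 siRNA was lower than Dppa2 siRNA by a log2 difference of -0.83 (95% interval -1.10 to -0.56). This p, 6.58e-05, had rank 4 of the 14601 genes, but after adjustment it was 0.240 (limma). In that comparison 0.0205% of all genes passed limma, and 0 of the 8 synaptonemal complex genes did, with 2 at an unadjusted p below 0.05 (Sycp3 and Syce1), against 6.76% of all genes. The deposited row of Sycp3 lists a transcript of Chpt1, a gene on the opposite strand that overlaps it. Its place and strand (chr10:88459569-88473236, plus strand) are those of Sycp3 in GENCODE, and Chpt1 has a row of its own. Chpt1 was at 2.30 ± 0.26 in Control siRNA libraries (SD, n = 3), 2.74 ± 0.13 with Dppa2 siRNA, and 2.49 ± 0.18 with Dppa4 siRNA, so its means lay above the control mean with both siRNAs. The authors counted by strand.

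Sycp2, which joins SYCP3 in the lateral element, was at 0.17, -0.34, and -0.49 in Control siRNA libraries, -1.94, -0.17, and -0.86 with Dppa2 siRNA, and -0.53, -1.47, and -0.28 with Dppa4 siRNA. These values stand for 19 to 46 reads per control library and 7 to 21 per knockdown library, and the groups overlapped. The log2 difference was -0.77 with Dppa2 siRNA (95% interval -1.86 to 0.32) and -0.54 with Dppa4 siRNA (-1.62 to 0.55). A decrease of 3-fold was therefore within the interval for either siRNA.

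**Figure D3:**
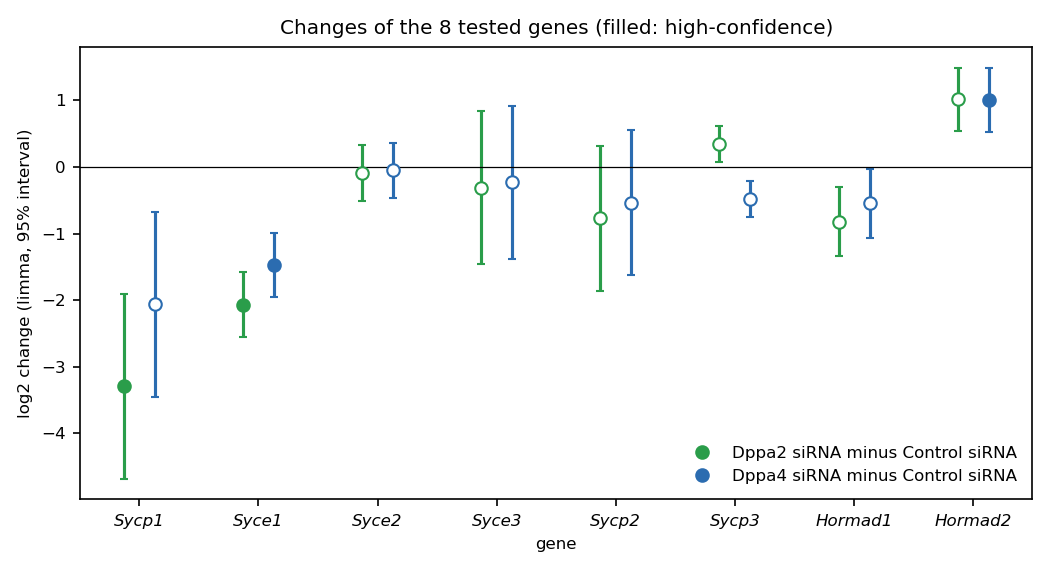
Log2 change from Control siRNA (y axis) with its limma 95% interval for the 8 tested genes (x axis), for Dppa2 and Dppa4 siRNA. Filled points are high-confidence calls, which are Syce1 in both knockdowns, Sycp1 with Dppa2 siRNA, and Hormad2 with Dppa4 siRNA.

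Seen only by whether libraries overlap, 3 of the 8 genes had all Dppa2 siRNA libraries below all Control siRNA libraries (Syce1, Sycp1, and Hormad1), against 8.2% of all tested genes, and 2 had all of them above (Sycp3 and Hormad2), against 9.57%. With Dppa4 siRNA, 3 lay below (Syce1, Sycp1, and Sycp3), against 10.2% of all tested genes, and 1 above (Hormad2), against 13.7%. Among the central element genes of this set, all 3 tested had a mean below control in both knockdowns, and only Syce1 was called. The HORMA domain genes lay on opposite sides, with Hormad2 above and Hormad1 below control in mean, and Hormad1 was not called. Differences between the changes of 2 genes were not tested.

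The genes whose values ran most like those of the called genes over the 9 libraries were named by Pearson's r, as a description in which the difference between the groups has a large share. For Syce1 these were Fkbp6 (r = 0.992), Actr3b (0.988), and Rbm15b (0.986). For Sycp1 they were Nudt10 (0.978), Fam185a (0.968), and Tex11 (0.960), and for Hormad2 they were Gstm7 (0.986), Iqcg (0.985), and Rinl (0.984). Of these 9 genes, Fkbp6 and Tex11 were called lower and Iqcg higher in both knockdowns, and Rinl was called higher with Dppa2 siRNA. The nearest tested genes on either side of Syce1 (Mtg1 and Zfp941), Sycp1 (Tspan2 and Sike1), and Hormad2 (Lif and Mtmr3) were not called in either knockdown. Zfp941 lies 19595 bases from Syce1 and differed by 0.08 and -0.04.

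Fkbp6 and Tex11 were also the called genes among other genes of meiosis. A list of 39 such genes, covering the axis cohesins, assembly of the complex, DNA breaks, recombination, telomere attachment, and meiotic entry, had 38 in the table and 32 tested. In each knockdown 2 of the 32 were called lower by limma and the filter, against 1.51% (Dppa2 siRNA) and 1.62% (Dppa4 siRNA) of all tested genes. In each, 0 were called higher, against 0.356% and 0.363%, and the median log2 change was 0.05 in both. At an unadjusted limma p below 0.05, 3 were lower and 5 higher in each knockdown, and these 8 of 32 stand beside the 15.7% and 18% of all genes. Fkbp6, a peptidylprolyl isomerase homolog required for male meiosis, ranged from 1.89 to 2.72 in Control siRNA libraries, from 0.20 to 0.69 with Dppa2 siRNA, and from 0.79 to 1.04 with Dppa4 siRNA. The groups did not overlap, and the change was -1.83 (limma adjusted p = 0.00281) and -1.35 (limma adjusted p = 0.0142). Tex11, an X-linked gene of crossover formation, ranged from 2.02 to 2.12 in Control siRNA libraries, from 0.41 to 1.19 with Dppa2 siRNA, and from 0.98 to 1.21 with Dppa4 siRNA. Its change was -1.20 (limma adjusted p = 0.0136) and -0.97 (limma adjusted p = 0.0354). By limma alone Spata22 with Dppa2 siRNA (-1.63, adjusted p = 0.0342) and Brme1 with Dppa4 siRNA (0.67, adjusted p = 0.0422) passed too, both named after their values were seen.

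The 3 listed meiosis genes with the highest control values were not called. Sun1, which tethers telomeres to the nuclear envelope, differed by 0.10 with Dppa2 siRNA and 0.17 with Dppa4 siRNA. Trip13, the ATPase that takes HORMA domain proteins off the axis, differed by -0.13 and -0.15. Hsf2bp, a partner of BRCA2 in meiotic recombination, differed by 0.20 and 0.24. Spo11, which makes the meiotic breaks, was too low to be tested.

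**Figure D4:**
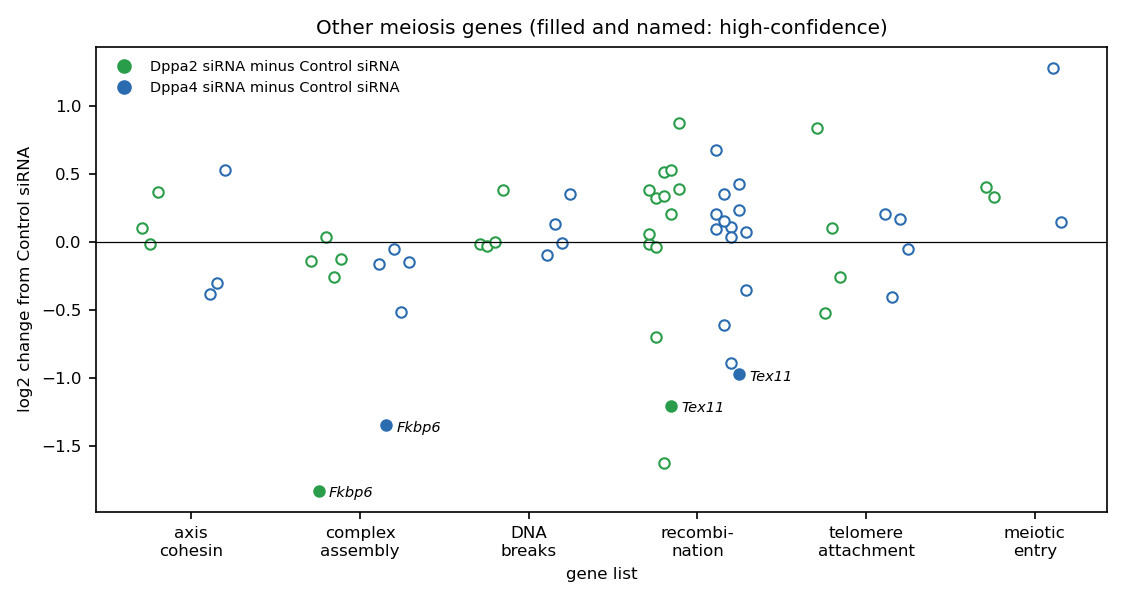
Log2 change from Control siRNA (y axis) of the 32 tested genes of the other meiosis lists, by gene list (x axis), with Dppa2 siRNA in green and Dppa4 siRNA in blue. Filled, named points are high-confidence calls. Fkbp6 and Tex11 lie below -0.9 in both knockdowns, and the other points lie between -1.63 and 1.28.

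The known repressors of germ line genes in ESCs gave no call. Of E2f6, Mga, Max, Pcgf6, L3mbtl2, Rnf2, Dnmt1, Dnmt3a, and Dnmt3b, 0 of 9 were called by limma in either knockdown. Of all tested genes, 2.27% were lower and 1.16% higher by limma alone with Dppa2 siRNA, and 2.34% and 1.1% with Dppa4 siRNA. An unadjusted limma p below 0.05 was reached by 0 of the 9 with Dppa2 siRNA and 1 with Dppa4 siRNA. The shares of all tested genes were 15.7% and 18%. Dnmt3a was that gene (0.40 with Dppa4 siRNA, limma adjusted p = 0.211), named after its values were seen. Dnmt3b and Dnmt1, DNA methyltransferases, differed by 0.09 and -0.05 with Dppa2 siRNA and by 0.10 and 0.03 with Dppa4 siRNA, and L3mbtl2, a subunit of the E2F6 complex, by -0.03 and 0.29.

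Markers of cell types were read beside these results. Of all tested genes, 1.51% with Dppa2 siRNA and 1.62% with Dppa4 siRNA were called lower, and 0.356% and 0.363% higher. An unadjusted limma p below 0.05 was reached by 15.7% and 18% of all tested genes. The 7 ESC markers gave 0 calls in either knockdown, and 0 had an unadjusted limma p below 0.05. Markers of 2C-like cells, the small part of an ESC culture that expresses genes of the two-cell embryo, were called lower in 6 of 7 with Dppa2 siRNA and 7 of 7 with Dppa4 siRNA. Their summed linear level was 66.0 to 69.2 in Control siRNA libraries, 0.517 to 1.19 in Dppa2 siRNA libraries, and 0.517 to 0.880 in Dppa4 siRNA libraries, with Tcstv1 at no reads in both knockdowns and Zscan4f at no reads with Dppa2 siRNA. Of the 7 germ cell markers 6 were tested, and Ddx4 (-1.91 and -1.19) and Dazl (-2.36 and -2.19) were called lower in both knockdowns. Nanos3, Prdm1, Dnd1, and Piwil2 were not called, and Nanos2 had no reads in any group. An unadjusted limma p below 0.05 was reached by 3 of the 6 in each knockdown, all lower. Besides Ddx4 and Dazl, these were Piwil2 with Dppa2 siRNA (-0.60) and Prdm1 with Dppa4 siRNA (-0.46). The summed level of all 7 germ cell markers was 40.8 to 45.04 in Control siRNA libraries. It was 28.5 to 30.1 in Dppa2 siRNA libraries and 29.3 to 33.1 in Dppa4 siRNA libraries. Primitive endoderm markers gave 0 calls of 7 (3 and 5 at an unadjusted limma p below 0.05 with Dppa2 and Dppa4 siRNA, all higher). Of these, Gata6 (1.44, adjusted p = 0.0132) and Sox17 (1.20, adjusted p = 0.0348) passed limma alone with Dppa4 siRNA, both named after their values were seen. All 7 primitive endoderm markers together summed to 10.2 to 14.0 in Control siRNA libraries, 13.7 to 17.3 in Dppa2 siRNA libraries, and 19.6 to 22.0 in Dppa4 siRNA libraries. Early differentiation markers gave 0 calls of 6 (with Dppa2 siRNA 3 lower and 1 higher at an unadjusted limma p below 0.05, and with Dppa4 siRNA 2 lower). Whether the 2C-like, germ cell, or primitive endoderm marker levels have a part in the changes of Syce1, Sycp1, and Hormad2 was not tested.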

How the data were processed

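RNA-seq values of 9 libraries were analysed, 3 per siRNA, grouped by the labels. The authors trimmed reads with Trim Galore (0.4.5 per the labels) and mapped them with HISAT2 2.0.5 to the GRCm38 build. Strand-specific mRNA quantitation in SeqMonk was followed by matching of the library distributions, and the authors deposited the result as log2 expression values. The matching compresses the lowest values, which touches Sycp1, Sycp2, Syce3, and Tex12. Reads were inferred from the order of distinct values (1 read per step up to 300 reads, a slope above), and 63.5% to 71.8% of genes per library lay within the steps, so totals are approximate and no count model was fitted. The 9 libraries were fitted together in limma 3.58.1 (R 4.3.3), with siRNA as the term and an intensity trend. The intensity difference filter was rebuilt on the nearest 1% of genes, and its intersection with limma followed the authors' definition of high-confidence genes, with limma in the place of DESeq2, which needs counts. The script was tested on simulated data. Exact intervals are Clopper-Pearson. Sequence sharing was looked up every 5 bases in GENCODE transcripts, and promoters came from RefSeq. Tables were made in Python 3.11.15 (scipy 1.17.1, pandas 2.3.3, numpy 2.4.6) and plots in matplotlib 3.10.9. Named were all 9 genes, the called genes and the 3 highest genes of each list, the 3 most alike genes, and the nearest tested neighbours of each called gene. The members and lists were chosen with earlier results of these data known. Alternatives tried were other filters, scalings, damping of low values, call rules, groups in the fit, a replicate block, and each library left out.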

Additional observations from a re-analysis of the deposited data

Results flagged for a closer look

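Sycp3 stood out because every Dppa2 siRNA library lay above and every Dppa4 siRNA library below all Control siRNA libraries. The difference itself, Dppa4 siRNA minus Dppa2 siRNA, was -0.83 on the log2 scale and did not pass the adjusted test (limma adjusted p = 0.240), and over the alternatives tried its adjusted p ran from 0.0712 to 1.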

How the results depend on the processing

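Syce1 was called lower in both knockdowns under all 18 alternatives run for it (limma adjusted p up to 0.0104 with Dppa2 siRNA and 0.0413 with Dppa4 siRNA). The counts of called synaptonemal complex genes were 2 in each knockdown. With Dppa2 siRNA the count was 1 with a filter at a log2 value above 0, with only the 2 groups compared in the fit, with the replicate letter as a block, and with the intensity difference filter adjusted for multiple tests, and it ran from 1 to 3 when each library was left out. Sycp1 was the gene lost, and damping low values by 0.25 gave it a change of -1.92. With Dppa4 siRNA the count was 1 without a filter on low values, with the block, and with the adjusted filter, and it ran from 1 to 2 when each library was left out. The damped values, the fit of only the 2 groups, and the fit without Dppa2 siRNA library A called Sycp1 in place of Hormad2. For Hormad2 the adjusted p of limma ran from 0.0125 to 0.154 for Dppa2 siRNA and from 0.0135 to 0.165 for Dppa4 siRNA. Without a filter on low values Sycp3 and Hormad1 passed limma with Dppa2 siRNA, both at an adjusted p of 0.0311, and on inferred reads per Mreads, an alternative chosen after seeing the data, Sycp3 passed with Dppa4 siRNA at 0.0257. None of these was called. The count between the knockdowns was 0 throughout. The letters were not taken as pairs, since the residuals of libraries with the same letter correlated at -0.585 to 0.367 and exceeded 0.1 in 2 of 9 pairs. Between groups, libraries with different letters correlated at -0.658 to 0.692 and exceeded 0.1 in 6 of 18 pairs. The block therefore tests a shared label only, and the variation that libraries of different letters share was not modelled.

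For the other meiosis genes (2 called in each knockdown) the count with Dppa2 siRNA was 1 with damping or only the 2 groups and 0 with the adjusted filter, and it ran from 1 to 3 when each library was left out, with Tex11 lost without Control siRNA library B or C. With Dppa4 siRNA it was 1 without a filter on low values, with damping, and with the block, 0 with the adjusted filter, and from 0 to 2 when each library was left out. It was 0 without Control siRNA library B or Dppa4 siRNA library A or B, and 1 without Control siRNA library A or C or Dppa4 siRNA library C. When each library was left out, differences near 0 changed sign. Those of Syce2 ran from -0.302 to 0.061 with Dppa2 siRNA, from -0.26 to 0.10 with Dppa4 siRNA, and from -0.0394 to 0.12 between the knockdowns. Those of Syce3 ran from -0.82 to 0.11, from -0.73 to 0.14, and from -0.34 to 0.49. Between the knockdowns, Sycp2 ran from -0.24 to 0.65 and Hormad2 from -0.11 to 0.0562. The cause was not tested. Depth limits Sycp1, Sycp2, Syce3, and Tex12, which rest on at most 82 reads in any library.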
